A study of Neogale vison with 6 samples.

Results

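Bone morphogenetic proteins (BMPs) are secreted ligands of the TGF-β superfamily. They bind pairs of type I and type II receptor kinases, which phosphorylate SMAD1, SMAD5 and SMAD9. These receptor-activated SMADs enter the nucleus with SMAD4 and switch on target genes, of which the ID genes and the inhibitory SMAD6 are textbook examples. ID proteins are helix-loop-helix proteins without a DNA-binding region. They pair with E proteins such as TCF3, TCF4 and TCF12 and keep them off DNA, and they are known for holding epithelial and progenitor cells in a proliferating, less differentiated state. The genes described here are BMP2 and BMP4 (ligands), BMPR1A and BMPR2 (receptors), SMAD1 and SMAD5 (receptor-activated SMADs), SMAD6 (an inhibitory SMAD), and ID1, ID2 and ID3. They were chosen by symbol in the count table, and all 10 were found there, each in 1 row of 24526 genes.

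The study asked how a mild loss of cholesterol changes the transcriptome of Mv1Lu, a line of mink lung cells described as epithelial. Untreated cells (control) and cells put through cholesterol depletion (CD) gave 3 libraries each. For CD, the cells spent 16 h with lovastatin, a statin that blocks HMG-CoA reductase, and with mevalonate, the product of that enzyme, each at 50 μM, in medium holding 10% lipoprotein-deficient fetal calf serum (LPDS). The sources used here do not give the medium of the control RNA samples, so the statin, the mevalonate and the serum cannot be told apart. The labels do not say that the libraries of a group came from separate cultures, so the p-values measure the spread between these libraries, which may be technical.

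The reads counted on genes numbered 13473820 to 18633764 per library. CD replicates differed from each other more than control replicates did, with a biological coefficient of variation of 0.214 against 0.0849, and the second principal component (12.3% of the variance) set CD replicate 3 apart from CD replicate 1. Unmapped reads made up 3.54%, 4.33% and 9.37% of the reads in CD replicates 1, 2 and 3, and 18.4%, 13.6% and 4.25% in the control. The line's label was checked against marker genes. Of 10 epithelial markers 8 were found, with a summed level of 1091 to 1215 CPM (reads scaled to library size) in the control and 585.5 to 670.4 CPM in CD, with most reads from KRT19 and TJP1. Of the 5 epithelial markers tested, KRT19 was lower (log2 change -1.03, FDR 2.74e-04), CLDN4 was higher (0.603 to 7.03 CPM on average, FDR 9.61e-06), and OCLN, TJP1 and ESRP1 were not called (edgeR). CDH1 (E-cadherin) and EPCAM, which define epithelium, had at most 6 and 4 reads in any library. Mesenchymal markers, led by VIM, summed to 4287 to 4557 CPM in the control and 4108 to 5122 CPM in CD, and of 6 tested CDH2 was higher (log2 change 0.74), COL1A1, COL1A2 and PDGFRB were lower (-0.93, -0.37 and -1.08), and VIM and PDGFRA were not called. The 6 endothelial markers summed to 209.3 to 223.7 CPM in the control and 76.36 to 125.8 CPM in CD, with most reads from TEK. TEK and TIE1 were lower (log2 change -1.08 and -1.15), whereas VWF was higher (5 reads in the control and 56 in CD, FDR 8.82e-04, edgeR), PECAM1 had 0 reads in the control and 11 in CD, and CDH5 had at most 1 read. The 4 leukocyte markers found summed to 5.204 to 5.84 CPM in the control and 17.64 to 23.31 CPM in CD, with most reads from CD68. Both leukocyte markers tested, CD68 and CD14, were higher, and PTPRC had 1 read or none. The 6 lung markers summed to 4.192 to 4.729 CPM in the control and 2.458 to 3.436 CPM in CD, with SFTPC and SFTPB at 0 reads in every library. Of the 2 tested, SCGB1A1 was lower (log2 change -1.21, FDR 0.0125, edgeR) and AGER was not called. The part of these differences in the results below was not tested. In bulk RNA, fewer cells of a type and less RNA per cell cannot be told apart.

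The 2 BMP ligands moved in opposite directions, the receptor-activated SMAD1 and SMAD5 were modestly higher, and the targets ID1, ID2 and SMAD6 were lower in CD. Higher expression was called for 3 of the 10 and lower for 4, by edgeR's quasi-likelihood test with a false discovery rate (FDR, Benjamini-Hochberg) under 0.05 over the 12148 genes tested. All 10 passed the filter on low counts. The background is high in these data, since 47.7% of all tested genes were called, 24.8% higher and 22.9% lower. The CD and control libraries did not overlap for 7 of the 10 genes, the same 7 that were called, beside 58.0% of all tested genes. The median log2 change (the log2 fold change of CD over control, as fitted by edgeR) of the 10 genes was -0.23, beside 0.06 over all tested genes. For any 1 gene on its own, the exact permutation test over these 6 libraries has a smallest two-sided p of 0.1.

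**Figure D1:**
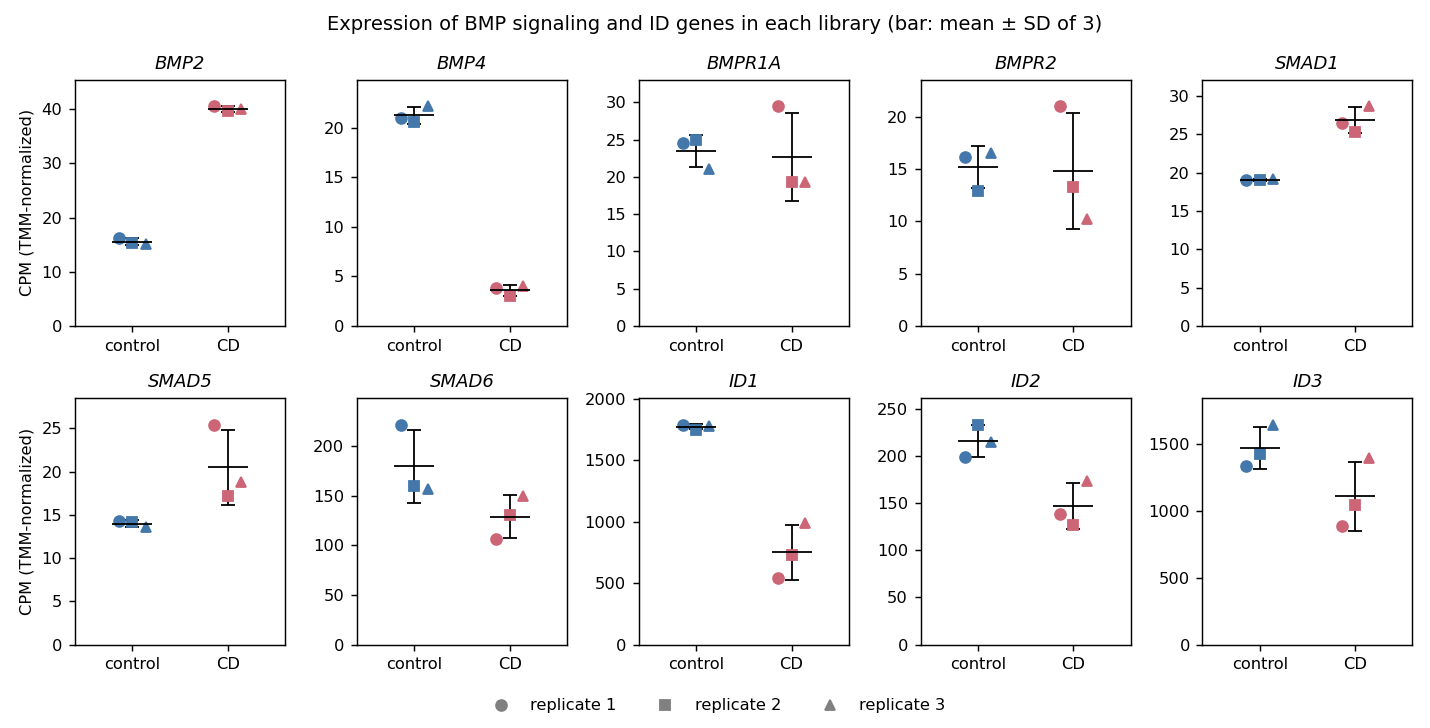
Expression (CPM after TMM normalization, vertical axes from 0) of the 10 genes in the 3 control (blue) and 3 CD (red) libraries, with the mean ± SD as black bars and the replicate given by the symbol. BMP2 lies near 40.0 CPM in all CD libraries and BMP4 at or under 4.03 CPM, while the CD libraries of ID1 spread from 542 to 987 CPM below control libraries that nearly coincide.

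BMP2 (ENSNVIG00000018558 in the count table), a ligand with roles in bone, heart and lung development, stood at 16.3, 15.3 and 15.2 CPM in control replicates 1, 2 and 3 and at 40.6, 39.6 and 40.0 CPM in CD replicates 1, 2 and 3. Both groups were tight and far apart. The mean rose from 15.6 ± 0.599 CPM in the control to 40.0 ± 0.498 CPM in CD (SD, n = 3 each), which is a log2 change of 1.36 ± 0.13 (SE), or 2.57-fold (FDR 2.17e-05, edgeR).

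BMP4 (ENSNVIG00000002596), a ligand that also acts in lung development, went the other way. It was at 21.0, 20.6 and 22.2 CPM in the control and at 3.81, 3.01 and 4.03 CPM in CD. The CD libraries lay close together, far below the control. Its log2 change was -2.56 ± 0.18 (SE), 5.88-fold lower (FDR 3.64e-06, edgeR), on 981 reads in the control and 167 in CD. This was the largest change among the 10 genes.

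Because both ligands were counted in the same libraries, their read ratio does not depend on how the libraries were scaled. BMP2 had 0.775, 0.744 and 0.682 reads per read of BMP4 in the control, and 10.6, 13.2 and 9.91 in CD. BMP4 thus had more reads than BMP2 in every control library and fewer in every CD library. The mean over libraries of the log2 ratio was higher in CD by 3.93, or 15.2-fold (p = 0.1 in a two-sided exact permutation test, which is its minimum, and 0.1 adjusted over the 4 ratios computed). These are ratios of reads and not of molecules, since gene lengths were not used.

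The receptors showed no call in either direction. BMPR1A (ENSNVIG00000024576), a type I receptor kinase, was at 24.6, 24.9 and 21.0 CPM in the control and 29.5, 19.3 and 19.3 CPM in CD. CD replicate 1 lay above all control libraries and CD replicates 2 and 3 below them. Its log2 change was -0.048 with a 95% interval of -0.48 to 0.38 (FDR 0.85, edgeR). BMPR2 (ENSNVIG00000007469), a type II receptor for BMPs, was at 16.1, 12.9 and 16.5 CPM in the control and at 21.0, 13.3 and 10.2 CPM in CD. Here too CD replicate 1 was the highest of the 6 libraries, and CD replicate 3 the lowest. The log2 change of BMPR2 was -0.031 with a 95% interval of -0.59 to 0.53 (FDR 0.93, edgeR). A change within that interval, in either direction, remains possible.

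Both receptor-activated SMADs rose. SMAD1 (ENSNVIG00000008529) was very even in the control, at 19.0, 19.0 and 19.1 CPM, and stood at 26.5, 25.3 and 28.7 CPM in CD. Every CD library exceeded every control library. The log2 change was 0.49 ± 0.13 (SE) (1.41-fold, FDR 0.0122, edgeR). The call was lost without control replicate 1 (log2 change 0.489, FDR 0.0609) or control replicate 3 (0.495, FDR 0.0513, edgeR), with little change in size. SMAD5 (ENSNVIG00000015960), the closest relative of SMAD1, was at 14.3, 14.2 and 13.6 CPM in the control and 25.4, 17.2 and 18.8 CPM in CD. CD replicate 1 was well above the other CD libraries. SMAD5 rose by a log2 change of 0.55 ± 0.18 (SE) (1.47-fold, FDR 0.0280, edgeR). That call was lost without control replicate 1, 2 or 3 (log2 change 0.56, 0.56 and 0.53, FDR 0.0846, 0.0822 and 0.101, edgeR). It was also lost without CD replicate 1, where the log2 change was 0.38 (FDR 0.0703, edgeR).

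SMAD6 (ENSNVIG00000016271), which blocks the activation of SMAD1 and SMAD5 and is itself a target of the pathway, was lower. Its levels were 222, 159.8 and 157 CPM in the control and 107, 130.4 and 150.2 CPM in CD. The groups did not overlap, but CD replicate 3 came close to control replicate 3, and control replicate 1 lay far above the other control libraries. Its log2 change was -0.48 ± 0.17 (SE) (FDR 0.0413, edgeR). Without control replicate 1 it was -0.30 and not called (FDR 0.198, edgeR). The call was also lost without control replicate 2 or 3, although the log2 change was then larger, at -0.56 and -0.57 (FDR 0.0543 and 0.0517, edgeR). Without CD replicate 1 or 2 the log2 change was -0.35 and -0.51, again with no call (FDR 0.108 and 0.0875, edgeR). SMAD7, the inhibitory SMAD shared with TGF-β signaling, was at 39.8 ± 1.90 CPM in the control and 42.7 ± 4.04 CPM in CD (SD, n = 3 each), a log2 change of 0.10 that was not called (95% interval -0.18 to 0.38, FDR 0.54, edgeR). The reads of SMAD6 per read of SMAD7 were 5.83, 4.03 and 3.76 in the control and 2.80, 2.90 and 3.33 in CD. That ratio was lower in each CD library than than in any control library, with a log2 difference of -0.57 (p = 0.1, two-sided exact permutation test, its minimum) and of -0.38 without control replicate 1.

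ID1 (ENSNVIG00000019195), the ID gene most often used as a readout of BMP signaling, had the largest fall among the ID genes. Its levels in the control were nearly identical, at 1790.0, 1749.7 and 1779.7 CPM. In CD they were 542, 726 and 987 CPM. Every CD library was far below the control, and the CD libraries differed 1.82-fold among themselves, against 1.02-fold in the control. On average ID1 fell from 1773 ± 20.9 CPM in the control to 752 ± 224 CPM in CD (SD, n = 3 each), which is a log2 change of -1.24 ± 0.20 (SE), or 2.36-fold lower (FDR 5.73e-04, edgeR). Leaving out CD replicate 1 gave a log2 change of -1.04, and leaving out CD replicate 3 gave -1.52.

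ID2 (ENSNVIG00000015663), which also binds retinoblastoma proteins, was at 199, 233 and 215 CPM in the control and at 139, 127 and 174 CPM in CD. All CD libraries were below all control libraries. Its log2 change was -0.56 ± 0.14 (SE), or 1.47-fold lower (FDR 0.00761, edgeR). ID3 (ENSNVIG00000023006) was at 1339, 1429 and 1646 CPM in the control and at 889.5, 1048 and 1393 CPM in CD. CD replicate 3 lay above control replicate 1, so the groups overlapped. The log2 change of ID3 was -0.41 with a 95% interval of -0.79 to -0.021, which was not called after adjustment (FDR 0.0774, edgeR). Without CD replicate 3 it was -0.64 and called (FDR 1.45e-05, edgeR), and without CD replicate 1 it was -0.26 (FDR 0.193). Leaving out any other single library gave no call for ID3.

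ID4, the remaining family member, had 202, 195 and 176 CPM in the control and 178, 210.4 and 280.0 CPM in CD. CD replicate 3 was the highest library and the groups overlapped, with a log2 change of 0.22 that was not called (95% interval -0.14 to 0.58, FDR 0.28, edgeR). The shares of ID1, ID3 and ID4 in the reads of the family did not overlap between the groups. ID1 gave 50.7%, 48.5% and 46.6% of all reads on ID1 to ID4 in the control and 31.0%, 34.4% and 34.8% in CD. For ID3 the shares were 37.9%, 39.6% and 43.1% in the control and 50.9%, 49.6% and 49.2% in CD, and for ID4 they were at most 5.72% in the control and at least 9.88% in CD. ID1 thus gave more reads than ID3 in each control library and fewer in each CD library. The reads of ID1 per read of ID3 were 1.34, 1.22 and 1.08 in the control and 0.609, 0.693 and 0.708 in CD, a log2 difference of -0.85. Per read of ID4, ID1 reads went from 8.87, 8.97 and 10.1 to 3.05, 3.45 and 3.52 (p = 0.1 for each ratio, two-sided exact permutation test, its minimum). The summed level of all 4 genes was 3530 to 3816 CPM in the control and 1748 to 2834 CPM in CD.

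**Figure D2:**
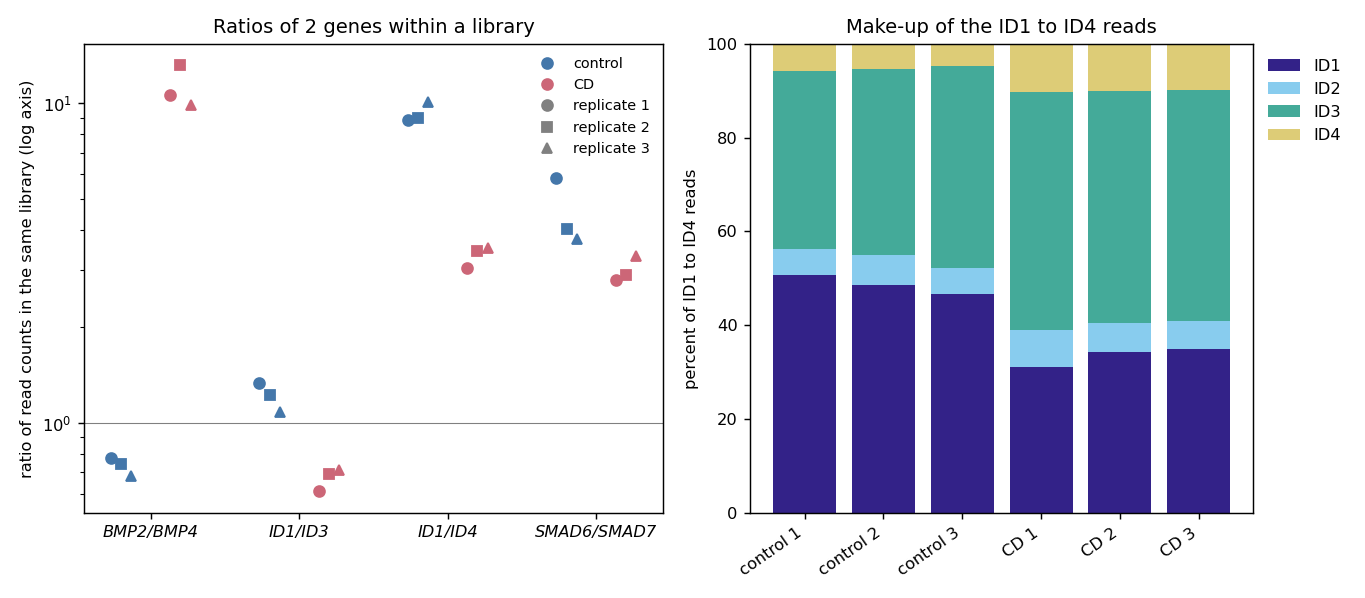
Left, the number of reads of 1 gene per read of another within the same library (log axis), for control (blue) and CD (red) libraries with the replicate given by the symbol. Right, the percent of ID1 to ID4 reads that each gene gave in each library. BMP2/BMP4 is at most 0.775 in the control and at least 9.91 in CD, and the share of ID1 is at least 46.6% in the control and at most 34.8% in CD.

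Within the CD group, ID1, ID3 and SMAD6 were lowest in replicate 1 and highest in replicate 3. BMPR1A and BMPR2 were highest in replicate 1 and lowest in replicate 3. Over all tested genes, 25.7% had the first pattern and 27.4% the second. The share of unmapped reads was also lowest in CD replicate 1 and highest in CD replicate 3, and its part in these levels was not tested. Of the 10 genes, BMP2 was the most even in CD, with libraries that differed 1.02-fold.

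To place the 10 genes in their pathway, 65 other genes of BMP signaling were followed by role, of which 55 were found by symbol and 41 had enough reads to be tested. Of these, 11 were higher and 8 lower in CD (edgeR, FDR under 0.05), or 46.3%, close to the 47.7% of all genes. Their median log2 change was 0.20. Among the other targets none was higher and 5 were lower, of 11 tested, and among the intracellular regulators 5 were higher and none lower, of 11 tested. In each of these roles 45.5% were called, close to the share of all tested genes, of which 24.8% were higher and 22.9% lower. Whether the direction goes with the role was not tested. The secreted and membrane-bound antagonists went both ways, with 3 higher and 2 lower of 9.

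**Figure D3:**
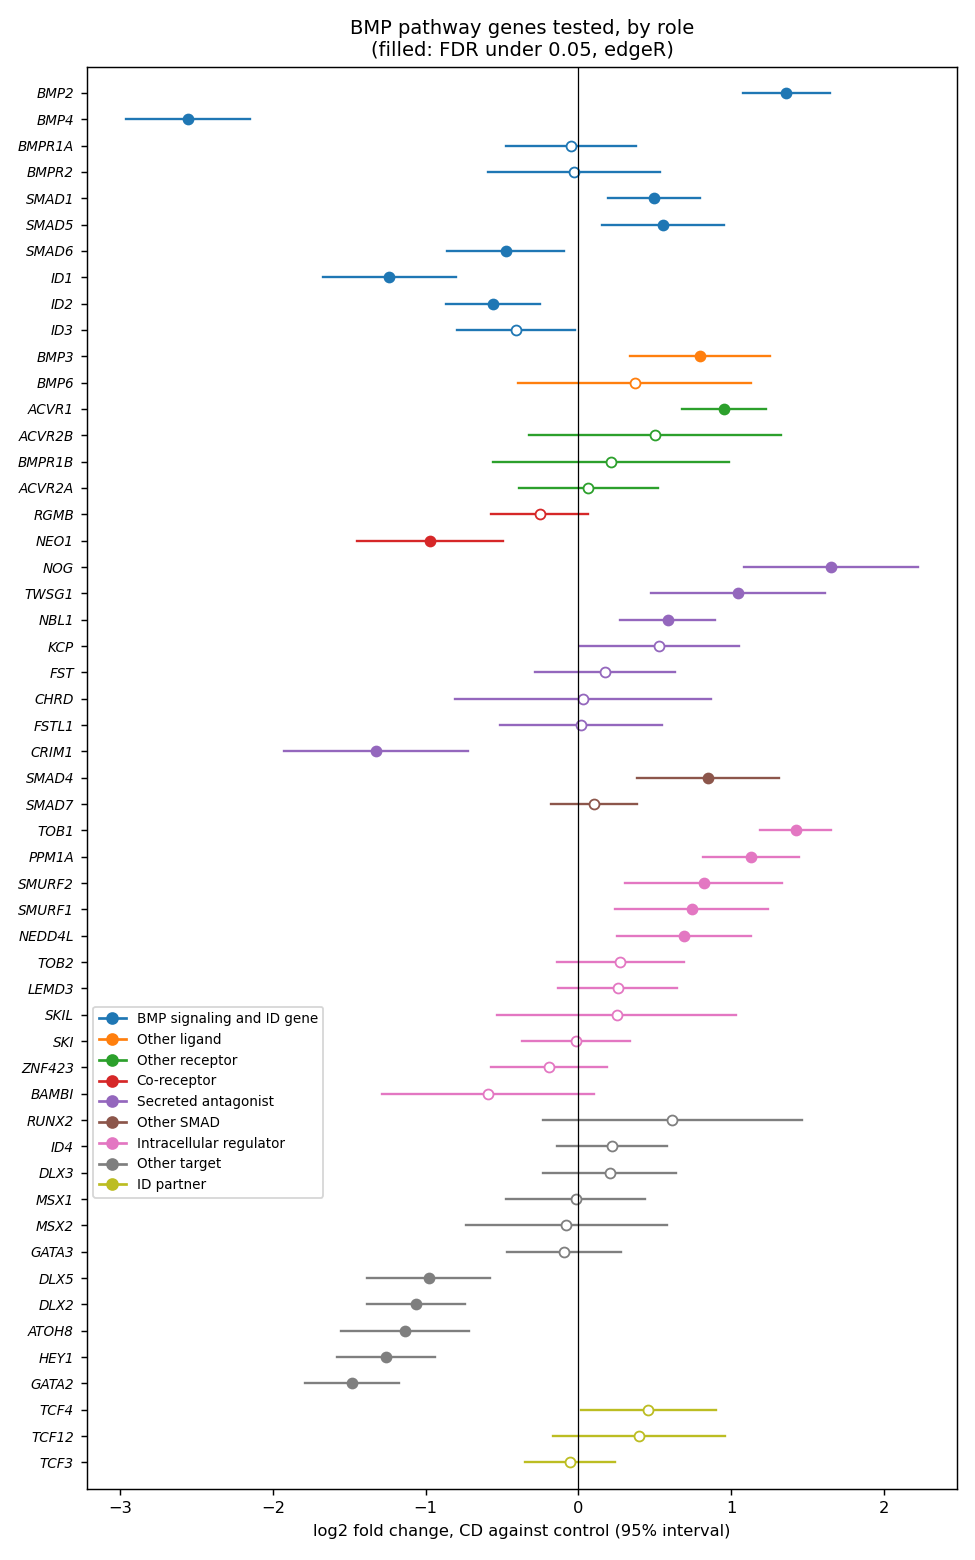
The log2 change of CD against control (horizontal axis, dots) with its 95% interval (lines) for the 10 genes, the other tested genes of the BMP pathway described here and 3 binding partners of the ID proteins, colored by role and filled where the FDR was under 0.05 in edgeR. The filled dots of the other target genes lie at -0.98 or lower, those of the intracellular regulators at 0.69 or higher. In each of these roles 6 of 11 dots are open.

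All other target genes tested encode transcription regulators. GATA2, a zinc finger factor of blood and endothelial cells, was at 45.9, 41.2 and 50.9 CPM in the control and 15.8, 16.6 and 17.1 CPM in CD, giving a log2 change of -1.48 (SE 0.14, FDR 2.03e-05, edgeR). HEY1, a repressor that also answers to Notch, fell from 39.4 ± 3.13 CPM in the control to 16.5 ± 1.69 CPM in CD (SD, n = 3 each; log2 change -1.26, FDR 7.59e-05, edgeR). ATOH8, a helix-loop-helix factor, was at 74.2, 53.9 and 47.4 CPM in the control and 22.3, 28.5 and 29.1 CPM in CD. As for SMAD6, control replicate 1 was the highest library of ATOH8. Its log2 change was -1.13 (FDR 7.61e-04, edgeR), and -0.93 without that library. The homeobox genes DLX2 and DLX5 had log2 changes of -1.07 and -0.98 (FDR 2.16e-04 and 0.00150, edgeR). In all of these genes the groups did not overlap. MSX1, another homeobox target, was at 10.3 ± 1.01 CPM in the control and 10.2 ± 2.22 CPM in CD (SD, n = 3 each) and was not called (FDR 0.95, edgeR). HAMP, the target in liver, had 0 reads in every library.

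Extracellular antagonists bind BMPs and keep them from their receptors. NOG (noggin) was low in the control, at 2.15, 1.59 and 2.15 CPM, and rose to 4.55, 7.24 and 6.92 CPM in CD. This was a log2 change of 1.66 ± 0.25 (SE) (3.15-fold, FDR 4.95e-04, edgeR), on 91 reads in the control and 288 in CD. CRIM1, a membrane protein that binds BMPs, fell from 200.3 ± 15.6 CPM in the control to 79.7 ± 34.8 CPM in CD (SD, n = 3 each; log2 change -1.33, FDR 0.00261, edgeR). TWSG1, which forms complexes with BMPs and chordin, rose by a log2 change of 1.04 (FDR 0.00730, edgeR). CHRD (chordin) itself was at 0.780 ± 0.271 CPM in the control and 0.806 ± 0.271 CPM in CD (SD, n = 3 each) and was not called. The third antagonist called higher was NBL1, at 115 ± 8.98 CPM in the control and 173 ± 29.0 CPM in CD (SD, n = 3 each). Its log2 change was 0.58 (FDR 0.00659, edgeR), and it kept its call under all 15 alternative settings.

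Of the other receptors, ACVR1, a type I receptor kinase for BMPs and activins, was the one called. It was at 39.8, 40.0 and 47.2 CPM in the control and 87.8, 77.7 and 81.0 CPM in CD, with a log2 change of 0.96 (SE 0.12, 1.94-fold, FDR 1.66e-04, edgeR). BMPR1B, the type I receptor closest to BMPR1A, was at 3.87, 5.49 and 3.80 CPM in the control and 8.17, 3.80 and 3.17 CPM in CD. As with BMPR1A and BMPR2, CD replicate 1 was its highest library and CD replicate 3 its lowest, and it was not called (FDR 0.64, edgeR). ACVRL1, the endothelial type I receptor, had 0 reads in every library, and its co-receptor ENG had 2 reads in all. NEO1, a receptor for the BMP co-receptors of the RGM family, fell by a log2 change of -0.97 (FDR 0.00408, edgeR).

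Inside the cell, SMAD4, the common partner of the receptor-activated SMADs, was at 12.7, 14.9 and 13.9 CPM in the control and 32.2, 24.2 and 18.2 CPM in CD. Its log2 change was 0.85 (SE 0.21, FDR 0.00766, edgeR). TOB1, which binds SMADs and represses BMP target genes, rose from 114 ± 6.08 CPM in the control to 305 ± 2.17 CPM in CD (SD, n = 3 each), which is a log2 change of 1.42 (SE 0.10, FDR 4.15e-06, edgeR). PPM1A, a phosphatase that acts on SMADs, was at 25.9, 29.9 and 23.9 CPM in the control and 59.4, 51.3 and 63.4 CPM in CD, giving a log2 change of 1.13 (FDR 1.37e-04, edgeR). The other higher regulators were the ubiquitin ligases SMURF1, SMURF2 and NEDD4L, which target SMADs and receptors, with log2 changes of 0.74, 0.82 and 0.69. The SMURF1 call was lost without any 1 of the control libraries, CD replicate 1 or CD replicate 2. The NEDD4L call was lost without any 1 of the control libraries or CD replicate 2, and the SMURF2 call without control replicate 3. In these fits the log2 changes were 0.53 to 0.80 for SMURF1, 0.57 to 0.72 for NEDD4L and 0.74 for SMURF2. BAMBI, a decoy receptor without a kinase, was at 1.88 ± 0.728 CPM in the control and 1.27 ± 0.0709 CPM in CD (SD, n = 3 each) and was not called (FDR 0.14, edgeR).

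The E proteins that ID proteins bind were not called. TCF3 was at 178 ± 0.436 CPM in the control and 171 ± 28.3 CPM in CD (SD, n = 3 each; 95% interval of the log2 change -0.35 to 0.24). TCF4 and TCF12 had log2 changes of 0.46 and 0.40 (FDR 0.0824 and 0.220, edgeR), and both values turned on single CD libraries. Without CD replicate 3 they were 0.56 and 0.62 and called (FDR 0.00822 and 3.62e-04, edgeR). Omitting CD replicate 1 gave 0.30 and 0.12 (FDR 0.209 and 0.679, edgeR). Leaving out any other single library gave no call for either gene.

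The tested genes with the pattern most like ID1 across the 6 libraries were PSMB9 (Pearson r of log2 CPM 0.9987), TRAF2 (0.9985) and IMP4 (0.9982). Those most like ID3 were TPPC3, POLR2I and ISCA2, with r between 0.9931 and 0.9973. These values describe 6 libraries that fall into 2 groups and share the same scaling.

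**Figure D4:**
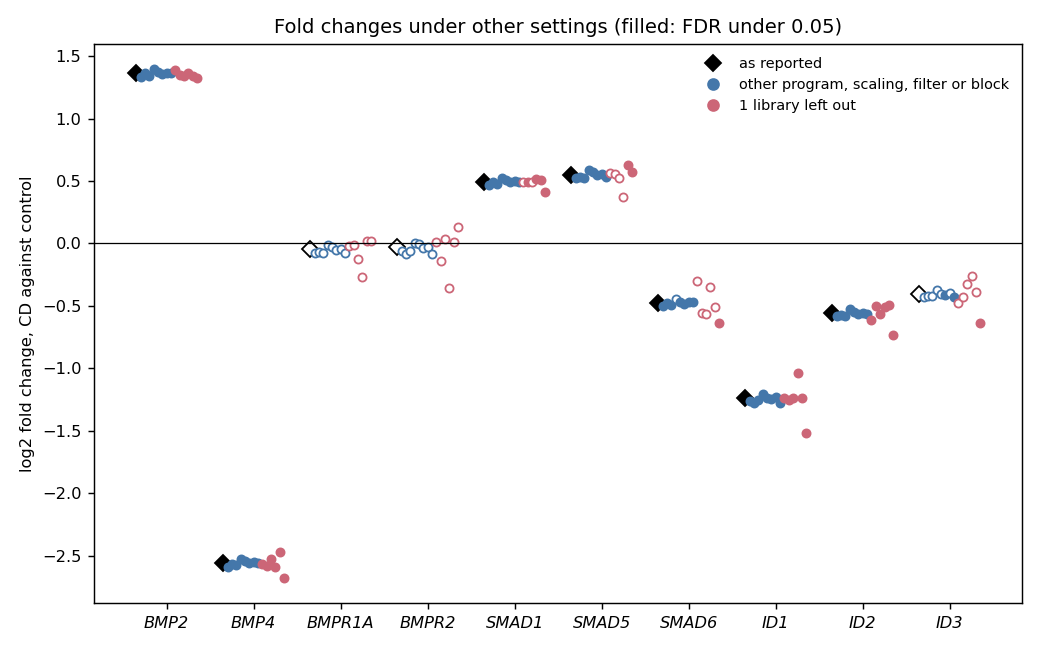
The log2 change of CD against control (vertical axis) of each of the 10 genes as reported (black diamonds), with another program, scaling, filter or block (blue) and with 1 library left out (red), filled where the FDR was under 0.05. BMP2, BMP4, ID1 and ID2 stay filled throughout, SMAD1, SMAD5 and SMAD6 have open points, and BMPR1A and BMPR2 lie on both sides of 0.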

How the data were processed

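RNA of Mv1Lu cells was sequenced as 3 control and 3 CD libraries, grouped by their labels. Per the study's methods, libraries were made from poly(A) mRNA with the Nextera XT kit, and reads were trimmed with fastp 0.20.1 and aligned to a mink assembly with STAR 2.7.2a. The read counter and its use of strand are not given in the sources used here, so overlapping, antisense and near-identical genes are uncertain. The authors deposited raw counts per gene, which were used here, and normalized values per library, which were not used because raw counts suit a count test. Rows of read totals (29.3% to 47.2% of the reads of a library) were left out.

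Here the test was that of edgeR 4.0.16 under R 4.3.3 (filterByExpr with a minimum count of 10, TMM, robust glmQLFit, glmQLFTest, condition as the only term, Benjamini-Hochberg over all tested genes). The standard error was the size of the log2 change divided by the square root of F, with a median of 0.18 over tested genes. CPM are TMM-normalized. They are not per length, so sums, shares and ratios over genes are in reads, not molecules. Alternatives were DESeq2 1.42.0, limma-voom (limma 3.58.1), other scalings and filters, a replicate block, omission of each library and an FDR of 0.01.

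The genes, lists, markers and ratios were chosen with earlier results of these data known, the 4 ratios after their values were seen. Named were the 10 genes, the 14 called pathway genes with the largest change, and SMAD4, SMAD7, ID4, ACVR1, BMPR1B, NOG, BAMBI and the E proteins. Other genes, such as NBL1, SMURF1, SMURF2 and NEDD4L, were named after their values were seen. SMAD9 was not found by symbol. Of the pathway genes this rule names, 1 is counted but not reported here. No sequences were used.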

Additional observations from a re-analysis of the deposited data

How the results depend on the processing

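BMP2, BMP4, ID1 and ID2 kept their call and direction under all 15 alternative settings, whereas SMAD1, SMAD5 and SMAD6 lost theirs in 3, 5 and 7 of them. For SMAD6 these included upper-quartile scaling (FDR 0.0592, edgeR). Leaving out 1 library at a time gave 1 to 3 of the 10 genes called higher and 3 to 5 lower, and 7 to 13 and 8 of the other pathway genes. The single higher gene was BMP2 without control replicate 1 or 3, and pathway genes called higher were fewest (7) without control replicate 3. Calls over all tested genes moved too, from 3016 higher and 2784 lower with all libraries. They were fewest without control replicate 3 (2216 and 2194) and most without CD replicate 3 (3616 and 3606). At an FDR of 0.01, 1 of the 10 genes was higher and 3 lower, and 2006 of all genes were higher. Values near 0 changed sign. BMPR2 was at 0.0044 with upper-quartile scaling and between -0.36 and 0.14 with 1 library left out, and BMPR1A between -0.27 and 0.021. Likewise, BMPR1B ranged from -0.31 (without CD replicate 1) to 0.42, TCF3 from -0.19 to 0.084 (without CD replicate 1) and ID4 from -0.011 (without CD replicate 3) to 0.37. The cause was not tested. With the replicate number as a block, 3 of the 10 genes were higher and 5 lower, ID3 being added (log2 change -0.43, FDR 0.0457, edgeR). The labels do not say whether the numbers pair the libraries. Same-numbered control and CD libraries had correlations of -0.024, -0.329 and -0.185 in their deviations from the group means. Those with unlike numbers had -0.0243 to 0.26. With 3 libraries per group these correlations cannot decide whether libraries share a culture or batch. The block changed no other call among these genes. ID3 was also called without the filter on low counts (FDR 0.0453, edgeR). Over all genes the median stayed between 0.0157 and 0.0908 over the settings. At 3 libraries per group, changes of the receptors smaller than their intervals were not detectable.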

Other observations

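The spread among the CD libraries ran through the wider pathway. Of its 41 tested genes, 18 (43.9%) were highest in CD replicate 1 and lowest in CD replicate 3, among them SMAD4, CRIM1 and NEO1, compared with 27.4% of all tested genes. The reverse pattern was found in 9 (22%), among them ID4, ATOH8 and DLX2, compared with 25.7% of all tested genes. This difference was not tested.

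Several BMP ligands were close to absent. BMP5, BMP10, GDF2, GDF5 and GDF6 had 0 to 6 reads in all control libraries together and 0 or 1 in CD. BMP6 was at 0.755 ± 0.0925 CPM in the control and 0.970 ± 0.341 CPM in CD (SD, n = 3 each) and was not called (FDR 0.40, edgeR). BMP3 rose from 3.19 ± 0.142 to 5.52 ± 0.887 CPM, a log2 change of 0.79 (FDR 0.00979, edgeR), and was named after its value was seen. Without control replicate 3 its FDR was 0.0508.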
